A study of Mus musculus with 12 samples.

Results

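Peaks of 3 histone marks were described at 10 mouse genes by which enterocytes take up dietary fat and package it: the uptake genes Cd36, Slc27a2 and Slc27a4, the cytosolic carrier genes Fabp1 and Fabp2, and the lipoprotein genes Apob, Mttp, Apoa1, Apoa4 and Apoc3. The genes were chosen by their role, with earlier results of these data known. A peak belonged to a gene where it overlapped the gene's RefSeq span on mm10 extended by 1 kb at both ends, and the 10 genes stood among 21883 protein-coding genes of that table. All 10 had an H3K4me3 peak and an H3K27ac peak, while 4 had an H3K27me3 peak.

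The libraries came from mouse intestinal organoids, cultures grown in Matrigel from isolated crypts with EGF, Noggin, R-spondin, CHIR-99021 and Y-27632. The organoids of the AA group had received arachidonic acid, an omega-6 polyunsaturated fatty acid, at 25 µM for 6 days, and those of the vehicle group had received vehicle. CUT&RUN, in which an antibody tethers a nuclease that releases the DNA beside a chromatin mark, was performed for H3K4me3, H3K27ac and H3K27me3 with 2 libraries per group and mark, 12 in all. The series as a whole is described with Ptger KO organoids and with a dimethyl-PGE2 arm for H3K27ac, whereas the labels of these libraries give no genotype, strain or age, so the genotype shared by both groups is not stated here. The labels name no step that differentiates the cultures, so how many of their cells are mature enterocytes is not stated.

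In the small intestine, fatty acids and monoacylglycerol from the lumen enter enterocytes, aided by CD36 and by fatty acid transport proteins of the SLC27 family, which also activate fatty acids to their CoA esters, and are carried in the cytosol by the fatty acid binding proteins FABP1 and FABP2. They are re-esterified in the endoplasmic reticulum, where microsomal triglyceride transfer protein (MTTP) loads the lipid onto apolipoprotein B (APOB), and the particle leaves as a chylomicron that also carries apolipoproteins such as APOA1, APOA4 and APOC3. H3K4me3 marks promoters that are active or poised, H3K27ac marks active promoters and enhancers, and H3K27me3 is laid down by Polycomb repressive complex 2 at genes it keeps silent.

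The sequences of 4 promoters are shown because they stand for the gene at which the marks differed most (Slc27a2), the other gene with a called peak (Mttp) and a pair of enterocyte genes with no called peak (Apob and Fabp2). Each is the 250 bases before the annotated start from RefSeq's GRCm38.p6 table, written along the gene's strand, with every CG dinucleotide in capitals. They lie at chr2:126552774-126553023 (plus strand, Slc27a2), chr3:138143419-138143668 (minus strand, Mttp), chr12:7977427-7977676 (plus strand, Apob) and chr3:122894822-122895071 (plus strand, Fabp2).
Slc27a2: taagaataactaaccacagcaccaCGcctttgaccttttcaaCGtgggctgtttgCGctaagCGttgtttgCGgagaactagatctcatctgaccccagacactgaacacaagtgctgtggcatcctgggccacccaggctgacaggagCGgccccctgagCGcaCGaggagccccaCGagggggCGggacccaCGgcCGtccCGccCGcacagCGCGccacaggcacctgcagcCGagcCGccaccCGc
Mttp: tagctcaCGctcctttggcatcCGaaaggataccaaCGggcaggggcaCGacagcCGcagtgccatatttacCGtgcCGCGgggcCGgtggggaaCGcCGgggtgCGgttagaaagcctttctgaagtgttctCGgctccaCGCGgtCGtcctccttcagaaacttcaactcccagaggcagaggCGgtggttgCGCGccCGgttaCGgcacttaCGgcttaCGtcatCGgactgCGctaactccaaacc
Apob: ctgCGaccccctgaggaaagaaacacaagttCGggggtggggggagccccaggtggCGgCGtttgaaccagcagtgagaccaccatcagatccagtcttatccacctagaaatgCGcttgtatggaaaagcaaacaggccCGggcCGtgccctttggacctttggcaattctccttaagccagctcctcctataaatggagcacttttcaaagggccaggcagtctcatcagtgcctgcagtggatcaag
Fabp2: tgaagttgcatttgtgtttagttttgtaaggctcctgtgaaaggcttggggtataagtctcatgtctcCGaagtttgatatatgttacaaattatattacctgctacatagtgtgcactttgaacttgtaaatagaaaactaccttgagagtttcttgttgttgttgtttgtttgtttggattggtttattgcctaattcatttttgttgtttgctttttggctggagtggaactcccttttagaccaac

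Of the 10 genes, 9 matched an entry of the promoter table, and Apoc3 had none. The Mttp promoter held 25 CG dinucleotides and that of Slc27a2 held 19, against a median of 10 over 17491 promoters of the same length. Those counts stood at the 88.4 and 76.9 percentiles of all promoters. The promoters of Slc27a4 and Apob held 8 and 7, that of Apoa1 held 4, that of Cd36 held 3 and that of Fabp1 held 2. Apoa4 and Fabp2 had 1 each. The G and C content was 64% at Slc27a2 and 61.2% at Mttp, against a median of 55.2% over all promoters, and 35.6% at Fabp2. Both genes with a called H3K4me3 peak had CG-rich promoters, while the other 7 matched genes had fewer CG dinucleotides than the median promoter. The Mttp window also holds the start of the neighbouring gene Trmt10a, 30 bases from Mttp, so its count is not that of Mttp alone. A link between CG count and calls was not tested. Both strands were searched for short motifs of intestinal factors. TTTATNG, a form of the CDX motif, occurred in the promoters of Apob, Fabp1 and Fabp2, and 9.33% of all promoters hold it. TATAAA, the TATA box, occurred in Apob, where it overlaps the CDX match, and in Fabp1, and 12.4% of all promoters hold it. None of the 9 windows held the HNF4 motif CAAAGTCCA, which is in 0.366% of all promoters, or the nuclear receptor repeat CAAAGGTCA, which is in 0.354%. The GATA-factor forms TGATAA (in 7.19% of promoters) and the related AGATAA (in 9.12%) were also not found, and neither was the HNF1 motif (0.4%). A match or its absence in these windows is a description only.

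The values are the deposited peak scores, which behaved as a per-base coverage, averaged over the peak and scaled separately for each library. The median SEACR peak had a raw coverage of 1.37 and 1.46 fragments per base in the AA libraries and 3.38 and 2.35 in the vehicle libraries of H3K4me3, so the AA libraries of that mark were the shallower ones. For the other marks it ranged from 1.19 to 2.76. AA replicate 2 of H3K4me3 stood apart, with a Spearman correlation over peaks of 0.64 to 0.72 with the other 3 libraries, which correlated at 0.81 to 0.82 with each other. Libraries of H3K27ac correlated at 0.51 to 0.65. Those of H3K27me3 correlated far less, at 0.29 within AA, 0.19 within vehicle and 0.12 to 0.23 across the groups. As a check of the labelled tissue, 12 of 13 intestinal epithelium markers had an H3K4me3 peak, with summed scores of their strongest peaks of 9.11 and 7.85 in AA and 7.89 and 7.53 in vehicle. Among hepatocyte markers, Ttr and Cps1 had an H3K4me3 peak and Alb, Ahsg and Serpina1a had none. Among adipocyte markers, Plin1 had a peak and Adipoq and Lep had none. Differences were tested with limma on log2(score + pseudocount) over all SEACR peaks of a mark, AA minus vehicle, with Benjamini-Hochberg adjustment and a threshold of 0.05. A peak past that threshold is called higher or lower below. The labels do not tie the libraries of a group to different cultures or mice, so the p-values cover library-to-library spread, which could be purely technical. Limma was run with its trend and robust options, which took the spread of a peak mostly from peaks of similar score. An SE or p-value below thus says little about how far the libraries of that peak itself differed. Bulk chromatin of this kind does not separate fewer cells that bear a mark from less of the mark per cell.

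Slc27a2 encodes FATP2, a very-long-chain acyl-CoA synthetase and fatty acid transporter best known from liver and kidney. The SEACR peak around its start had less H3K4me3 and more H3K27me3 in AA organoids, and its H3K27ac did not pass the test. With the narrower MACS2 peaks, the H3K4me3 difference passed downstream of the start and not over the start itself. The gene lies on the plus strand of chromosome 2, at chr2:126553024-126588243. The H3K4me3 peak over its start, chr2:126551692-126557233, runs from 1332 bases before the start to 4209 bases after it and so covers the promoter shown above. Its score was 0.532 and 0.417 in the AA libraries and 1.08 and 1.06 in the vehicle libraries. Both AA libraries lay well below both vehicle libraries. The means were 0.475 ± 0.0814 in AA and 1.07 ± 0.0106 in vehicle (SD, n = 2 libraries each), a ratio of 0.443. On the log2 scale the peak was lower by a change of -1.14 ± 0.18 (SE, limma adjusted p = 1.82e-07). Before scaling, its coverage was 4.89 and 4.11 fragments per base in AA and 21 and 13.9 in vehicle. Peaks of this level did not share that direction: among the 5854 H3K4me3 peaks with the highest mean scores, the median change was 0.28. The value moved between -1.31 and -0.98 when 1 library was left out. The call did not hold without vehicle replicate 1 (limma adjusted p = 0.396) or without vehicle replicate 2 (limma adjusted p = 0.432), where the lone vehicle library is assumed to vary like the AA libraries, nor in limma without trend and robust (adjusted p = 0.459).

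**Figure D1:**
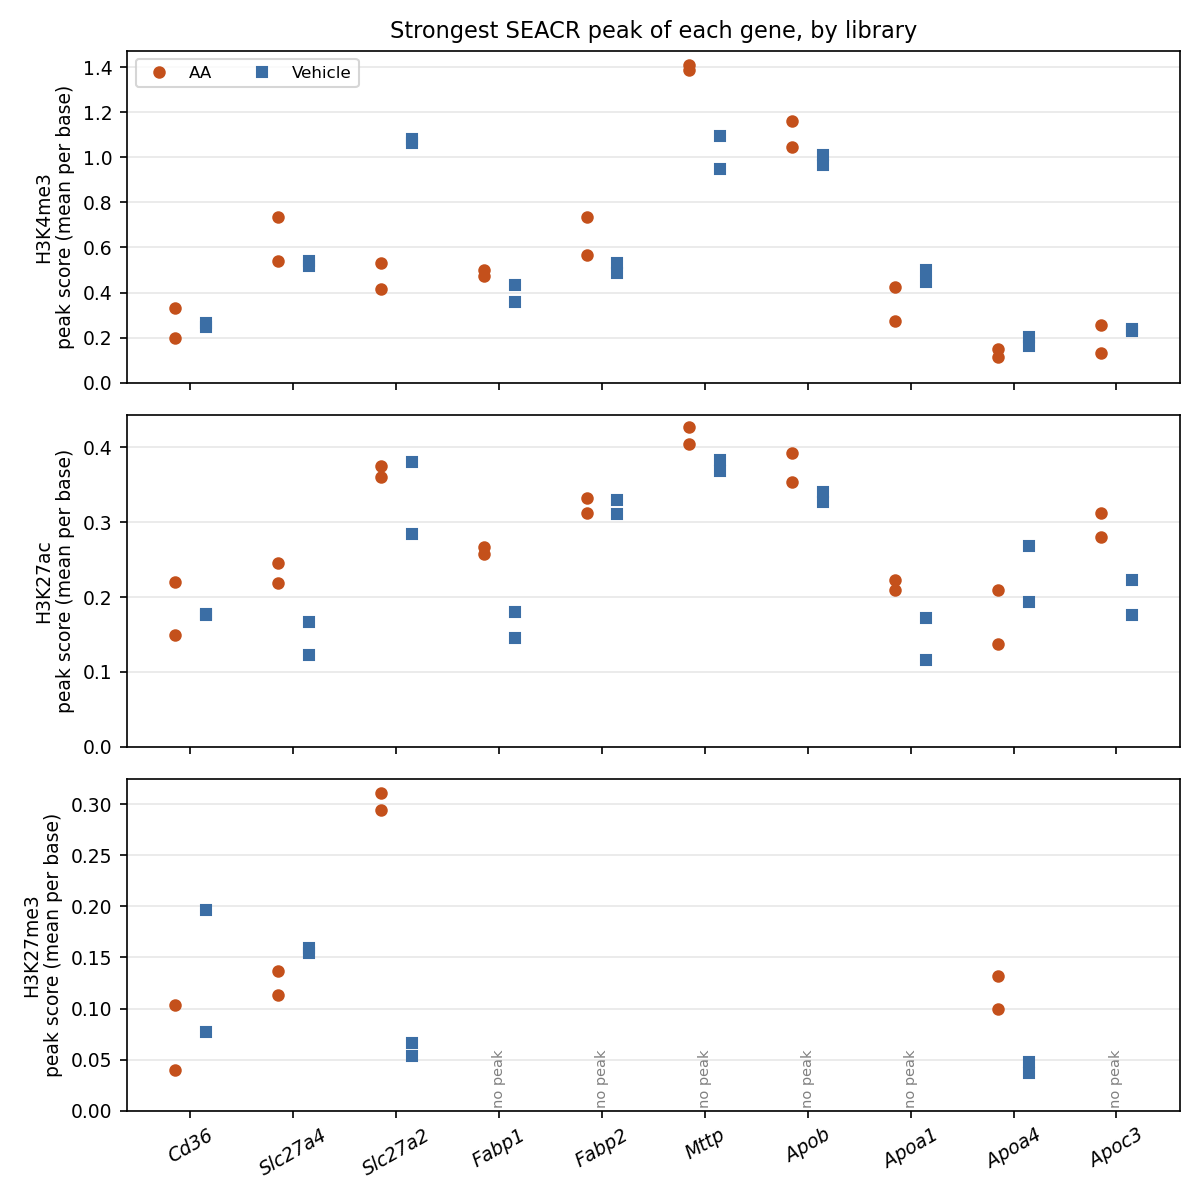
Score of the strongest SEACR peak of each gene (vertical axis, linear from 0) in every library, in 1 panel per mark, with AA libraries as orange circles left of the vehicle libraries as blue squares. At Slc27a2 the AA libraries lie below the vehicle libraries for H3K4me3 and above them for H3K27me3, and 6 genes have no H3K27me3 peak.

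The narrower MACS2 peaks divide this interval. The MACS2 peak that spans the start, from 311 bases before it to 615 bases after it, had a score of 1.36 and 0.807 in AA and 1.3 and 1.42 in vehicle. There the groups overlapped, and the change of -0.32 ± 0.23 did not pass (limma adjusted p = 0.388). The next MACS2 peak, from 655 to 2994 bases into the gene, had 0.581 and 0.518 in AA and 1.68 and 1.62 in vehicle. Its change was -1.35 ± 0.25 (SE, limma adjusted p = 0.00226). The difference in H3K4me3 was thus measured in the body of the peak downstream of the start, while at the start itself AA replicate 2 alone lay below the vehicle libraries. Over all MACS2 peaks of H3K4me3, 5.22% were called higher and 1.09% lower.

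A further 3 SEACR peaks of H3K4me3 lie within Slc27a2, and none was called. The peak 18395 to 21094 bases into the gene had 0.263 and 0.236 in AA and 0.392 and 0.453 in vehicle, a change of -0.71 ± 0.28 (limma adjusted p = 0.149). The peak 9041 to 11529 bases in had 0.185 and 0.13 in AA and 0.224 and 0.325 in vehicle, also with a change of -0.71 (limma adjusted p = 0.3). At both, the AA libraries lay below the vehicle libraries. The weakest, 22216 to 23387 bases in, had 0.0514 and 0.0757 in AA and 0.154 and 0.0755 in vehicle, and its groups overlapped.

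H3K27me3 at the start of Slc27a2 went the other way. The peak chr2:126551800-126558146, from 1224 bases before the start to 5122 bases after it, had a score of 0.311 and 0.294 in the AA libraries and 0.0532 and 0.0662 in the vehicle libraries. All AA values were more than 4 times every vehicle value. The means were 0.302 ± 0.0119 in AA and 0.0597 ± 0.00918 in vehicle (SD, n = 2 libraries each), a ratio of 5.06 and a log2 change of 1.86 ± 0.33 (SE, limma adjusted p = 0.000474). Its raw coverage was 3.29 and 3.84 fragments per base in AA and 0.92 and 0.82 in vehicle, so the vehicle level rests on few fragments. The peak was among the stronger ones of the mark: its mean over the 4 libraries stood at percentile 94.9, and the median change among the 10530 strongest peaks was 0.23. It shares 5434 bases with the H3K4me3 peak, which is 98.05% of the H3K4me3 peak and 85.62% of the H3K27me3 peak. The change lay between 1.76 and 1.96 when 1 library was left out. The call was lost without AA replicate 1 (limma adjusted p = 0.536), AA replicate 2 (limma adjusted p = 0.285) or vehicle replicate 1 (limma adjusted p = 0.0754) and held without vehicle replicate 2 (limma adjusted p = 0.0284). It was also lost in limma without trend and robust (adjusted p = 0.706). The adjoining H3K27me3 peak, 5153 to 6938 bases into the gene, had 0.226 and 0.106 in AA and 0.0715 and 0.0201 in vehicle. Its groups did not overlap either, but its change of 1.35 ± 0.64 did not pass (limma adjusted p = 0.486). Of the remaining pair of H3K27me3 peaks in the gene, the one at 13707 to 15114 bases was near the lowest level of all peaks, and the one at 26964 to 27794 bases had overlapping groups. MACS2 called no H3K27me3 peak at Slc27a2 or at any other of the 10 genes.

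**Figure D2:**
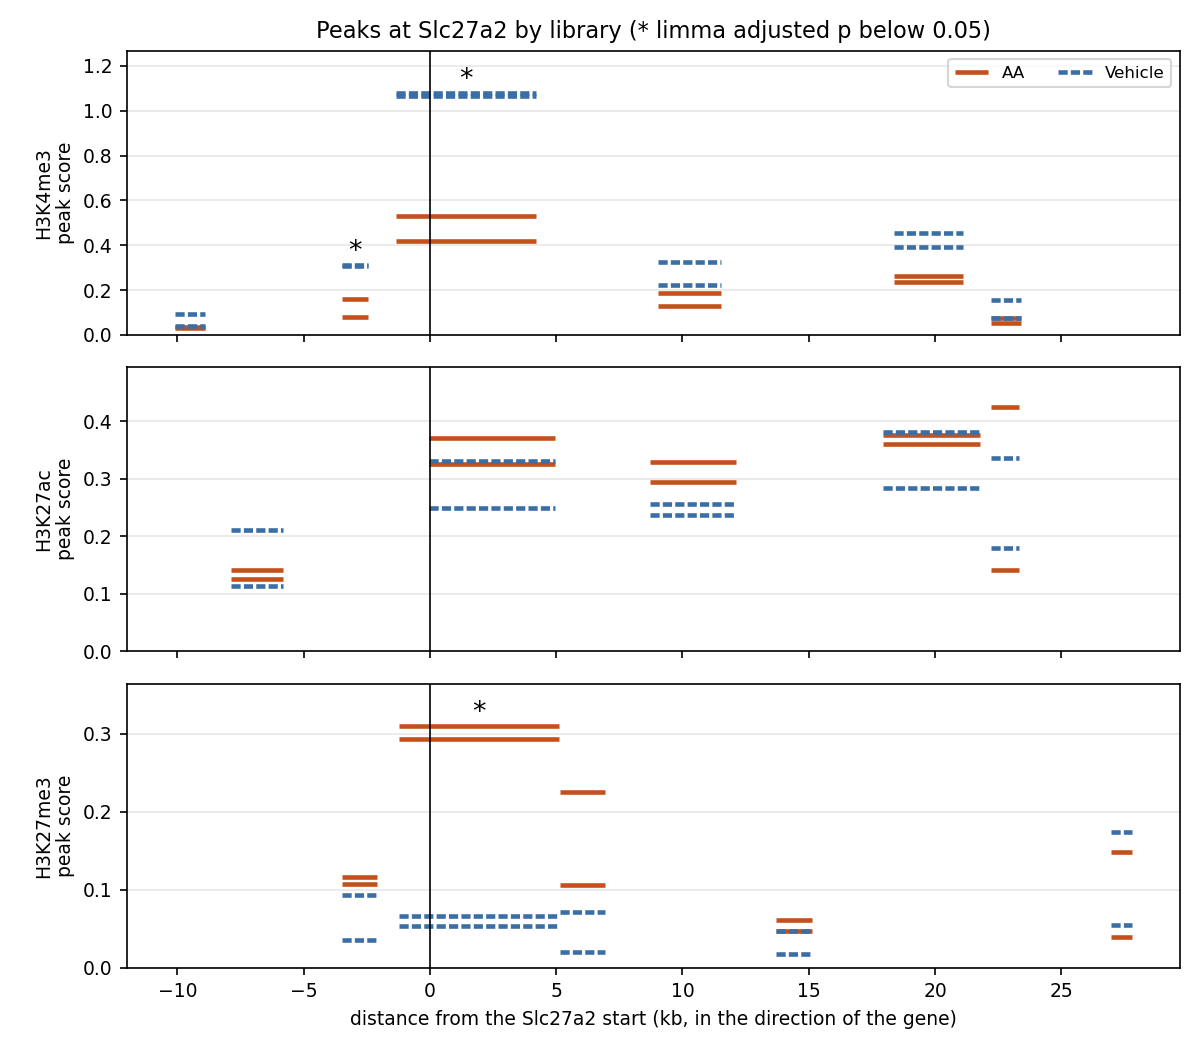
Peak scores of each library along Slc27a2 (horizontal axis, distance from the annotated start in kb; vertical axis, SEACR peak score), in 1 panel per mark, with AA libraries as solid orange lines and vehicle libraries as dashed blue lines. An asterisk marks a peak past the threshold: over the start, AA lies below vehicle for H3K4me3 and above it for H3K27me3, while the H3K27ac peaks have no asterisk.

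H3K27ac at Slc27a2 formed 4 peaks, and none passed. The peak over the start had 0.325 and 0.371 in AA and 0.331 and 0.249 in vehicle, with a change of 0.22 ± 0.18 (limma adjusted p = 0.792). The groups overlapped, and the change had the opposite sign to that of H3K4me3 over the same bases. The strongest H3K27ac peak of the gene lies 17934 to 21780 bases in and had 0.376 and 0.36 in AA and 0.284 and 0.38 in vehicle (limma adjusted p = 0.853). The peak at 8734 to 12116 bases had 0.328 and 0.294 in AA and 0.237 and 0.255 in vehicle, a change of 0.27 (limma adjusted p = 0.773).

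By adjusted p, the start peak of Slc27a2 was the 41st of 58548 H3K4me3 peaks and the 79th of 105301 H3K27me3 peaks. By size it was the 456th of the 806 H3K4me3 peaks called lower and the 26th of the 524 H3K27me3 peaks called higher. H3K4me3 was also lower in AA at some genes listed as markers of other cells. Of 5 hepatocyte markers 2 had a peak, Ttr and Cps1, with a summed score of 1.10 and 0.961 in AA and 1.59 and 1.55 in vehicle. Of 3 adipocyte markers 1 had a peak, Plin1, at 0.204 and 0.179 in AA and 0.445 and 0.442 in vehicle. In both lists AA lay below vehicle, as at Slc27a2, and Ttr (-0.81, limma adjusted p = 0.0391) and Plin1 (-1.11, limma adjusted p = 0.0141) were called lower on the log2 scale. The defining genes Alb and Adipoq had no peak. The sum over 3 of 5 fibroblast markers was 0.964 and 0.801 in AA and 1.01 and 1.22 in vehicle, with no peak at Col1a2 or Col3a1. Over 2 of 3 endothelial markers it was 0.423 and 0.293 in AA and 0.492 and 0.536 in vehicle. Over 2 of 4 blood markers, without Ptprc, it was 0.32 and 0.398 in AA and 0.43 and 0.386 in vehicle, with overlapping sums. None of the fibroblast, endothelial or blood markers was called, and the groups overlapped at Cd3e, Pecam1, Col1a1 and Dcn. None of the 12 intestinal epithelium markers with an H3K4me3 peak was called for that mark. Among them AA also lay below vehicle at Lgr5, Olfm4 and Lyz1. It lay above vehicle at Epcam, Cdx2 and Alpi, and the groups overlapped at the rest. For H3K27me3, 1 of the 9 intestinal epithelium markers with a peak was called higher and 0 lower. Over all genes 2.53% were called higher for H3K27me3 and 0.265% lower. No marker of the other cell types was called for H3K27me3. Over all H3K4me3 peaks the median change was -0.19. Whether cells other than intestinal epithelium had a part in the Slc27a2 result was not tested.

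Slc27a4 encodes FATP4, the main fatty acid transport protein and acyl-CoA synthetase of the enterocyte, and none of its peaks was called. The H3K4me3 peak over its start (chr2:29801964-29805826) had 0.734 and 0.538 in AA and 0.54 and 0.519 in vehicle. AA replicate 1 was high, AA replicate 2 was level with vehicle, and the change of 0.24 ± 0.20 did not pass (limma adjusted p = 0.574). The peak over the gene's end had 0.425 and 0.354 in AA and 0.378 and 0.363 in vehicle. H3K27ac at the start was 0.235 and 0.195 in AA and 0.143 and 0.173 in vehicle, a change of 0.32 (limma adjusted p = 0.808). The strongest H3K27ac peak, at the gene's end, had 0.246 and 0.219 in AA and 0.123 and 0.166 in vehicle, a change of 0.50 (limma adjusted p = 0.707). In both H3K27ac peaks the AA libraries were above the vehicle libraries. The H3K27me3 peak, which ends 983 bases before the start, had 0.113 and 0.137 in AA and 0.159 and 0.154 in vehicle (limma adjusted p = 0.851).

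Cd36 encodes a scavenger receptor that binds long-chain fatty acids and oxidised lipoproteins. Its peaks were weak in all 3 marks. The table's start on the minus strand of chromosome 5 (17835896) is 1 of several starts in a span of 107270 bases, and no H3K4me3 peak lies over it. The H3K4me3 peak of the gene, 4917 to 7753 bases downstream, had 0.331 and 0.197 in AA and 0.249 and 0.262 in vehicle, and its fitted change was 0.00 ± 0.32 (limma adjusted p = 0.996). The H3K27ac peak at the same place had 0.149 and 0.22 in AA and 0.177 and 0.177 in vehicle. In both, the AA libraries lay on either side of vehicle. An H3K27ac peak 44290 to 45748 bases upstream of that start, still inside the gene's span, had 0.21 and 0.263 in AA and 0.0641 and 0.0605 in vehicle. This was the largest H3K27ac ratio among the peaks of the 10 genes (3.79), with a change of 1.21 ± 0.40 that did not pass (limma adjusted p = 0.259). Cd36 also held 4 H3K27me3 peaks with group means between 0.0611 and 0.137, and the largest change among them was -0.68 ± 0.60 (limma adjusted p = 0.77).

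The cytosolic carriers stood higher on average in AA for H3K4me3, within the spread of the fit. Fabp1, which encodes liver-type fatty acid binding protein, is also made in enterocytes. Its H3K4me3 peak over the start (chr6:71198837-71202944) had 0.473 and 0.501 in AA and 0.36 and 0.433 in vehicle, a change of 0.29 ± 0.24 (limma adjusted p = 0.564). Its H3K27ac peak had 0.267 and 0.258 in AA and 0.18 and 0.145 in vehicle. The groups did not overlap in either mark, and the H3K27ac change was 0.52 ± 0.25 (limma adjusted p = 0.626). Fabp2 encodes the intestinal fatty acid binding protein. Its H3K4me3 peak (chr3:122894349-122899004) had 0.736 and 0.567 in AA and 0.486 and 0.532 in vehicle, a change of 0.33 ± 0.20 (limma adjusted p = 0.416). All AA values exceeded all vehicle values and AA replicate 2 was close to the nearer vehicle library. Without AA replicate 2, which leaves a single AA library, the change was 0.51. H3K27ac at Fabp2 was 0.332 and 0.312 in AA and 0.311 and 0.33 in vehicle, a change of 0.00 ± 0.18. Neither gene had an H3K27me3 peak. The promoters of Fabp2 and Apoa4 had the fewest CG dinucleotides of the 9 matched genes, and both genes had an H3K4me3 peak over the start.

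Mttp encodes the large subunit of the transfer protein that lipidates APOB, and its loss in humans causes abetalipoproteinemia. The start peak of Mttp had a higher H3K4me3 score in AA. That peak (chr3:138141720-138145641, minus strand gene) runs from 2223 bases before the start to 1698 bases after it and had a score of 1.41 and 1.39 in AA and 1.1 and 0.947 in vehicle. The AA libraries were nearly equal and both lay above the vehicle libraries. The means were 1.4 ± 0.0148 in AA and 1.02 ± 0.106 in vehicle (SD, n = 2 libraries each), a ratio of 1.37 and a change of 0.45 ± 0.13 (SE, limma adjusted p = 0.033). Before scaling, the coverage was 12.9 and 13.7 fragments per base in AA and 21.3 and 12.4 in vehicle. Both AA libraries thus lay above both vehicle libraries only after the deposited scaling. The peak was the strongest SEACR peak of H3K4me3 at the 10 genes and stood at percentile 99.1 of all peaks by mean score, and the median change among the 5854 strongest peaks was 0.28. After quantile normalization, the change was 0.13 and did not pass (limma adjusted p = 0.437), and with the MACS2 peak over the start it was 0.45 (limma adjusted p = 0.097). The call was also lost without vehicle replicate 1 (limma adjusted p = 0.839) or vehicle replicate 2 (limma adjusted p = 0.884), and in limma without trend and robust (adjusted p = 0.551). Trmt10a, a tRNA methyltransferase gene on the plus strand, starts 30 bases away, so the peak covers the starts of both genes and cannot be assigned to either.

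A second broad H3K4me3 peak of 11099 bases lies 6055 to 17153 bases into Mttp. It had 0.727 and 0.666 in AA and 0.858 and 0.878 in vehicle, lower in both AA libraries, with a change of -0.31 ± 0.17 (limma adjusted p = 0.353). Taken as 1 length-weighted mean over all its peaks, Mttp had a change of -0.06, the opposite sign to its start peak. H3K27ac over the same broad region, 5656 to 17258 bases in, was the highest H3K27ac score among the 10 genes, at 0.404 and 0.428 in AA and 0.383 and 0.369 in vehicle (limma adjusted p = 0.853). At the start it was 0.404 and 0.348 in AA and 0.309 and 0.327 in vehicle, a change of 0.20 (limma adjusted p = 0.802). The AA libraries were above the vehicle libraries in both. No H3K27me3 peak lies at Mttp.

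Apob encodes the structural protein of chylomicrons, and its peaks showed no called difference. The H3K4me3 peak over the start (chr12:7977001-7979609) had 1.05 and 1.16 in AA and 1.01 and 0.965 in vehicle, a change of 0.16 ± 0.14 (limma adjusted p = 0.606). Both AA values were above both vehicle values, and AA replicate 1 was close to the higher vehicle library. The H3K27ac peak over the start had 0.393 and 0.353 in AA and 0.341 and 0.326 in vehicle, a change of 0.13 (limma adjusted p = 0.852). The H3K4me3 peak stood at percentile 97.3 by mean score, while those further into the gene were weak. The peak 5338 to 6457 bases in had 0.0495 and 0.151 in AA and 0.0126 and 0.0405 in vehicle, a change of 1.20 ± 1.06 (limma adjusted p = 0.591). No H3K27me3 peak lies at Apob.

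Apoa1, Apoc3 and Apoa4 encode apolipoproteins of chylomicrons and high-density lipoprotein, with APOC3 known as an inhibitor of lipoprotein lipase, and they sit together within 14829 bases of chromosome 9 (chr9:46228630-46243458). None of their peaks was called. H3K4me3 at Apoa1 was 0.424 and 0.275 in AA and 0.447 and 0.498 in vehicle, a change of -0.44 ± 0.25 (limma adjusted p = 0.372). At Apoc3 it was 0.256 and 0.13 in AA and 0.228 and 0.24 in vehicle, and at Apoa4 0.149 and 0.112 in AA and 0.201 and 0.162 in vehicle. AA replicate 2 was the lowest library at all 3 genes. AA replicate 1 lay just under the vehicle libraries at Apoa1, above them at Apoc3 and below them at Apoa4. The fitted changes at Apoc3 and Apoa4 were -0.31 and -0.41 (limma adjusted p = 0.686 and 0.655). H3K4me3 peaks of similar level had a median change of -0.21 for Apoa1, -0.26 for Apoc3 and -0.27 for Apoa4. H3K27ac went the other way at the first pair of genes. At Apoc3 it was 0.312 and 0.28 in AA and 0.222 and 0.176 in vehicle, a change of 0.45 ± 0.22 (limma adjusted p = 0.62), and before Apoa1 it was 0.21 and 0.222 in AA and 0.115 and 0.172 in vehicle (log2 change 0.43, limma adjusted p = 0.764). At Apoa4 it was 0.138 and 0.209 in AA and 0.268 and 0.194 in vehicle, the only H3K27ac peak of the 10 genes with a change below 0 (-0.31 ± 0.27, limma adjusted p = 0.803). An H3K27me3 peak over the end of Apoa4 had 0.132 and 0.0994 in AA and 0.0475 and 0.0367 in vehicle, a change of 0.98 ± 0.69 (limma adjusted p = 0.698). The groups did not overlap, at scores near the lowest of the mark.

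**Figure D3:**
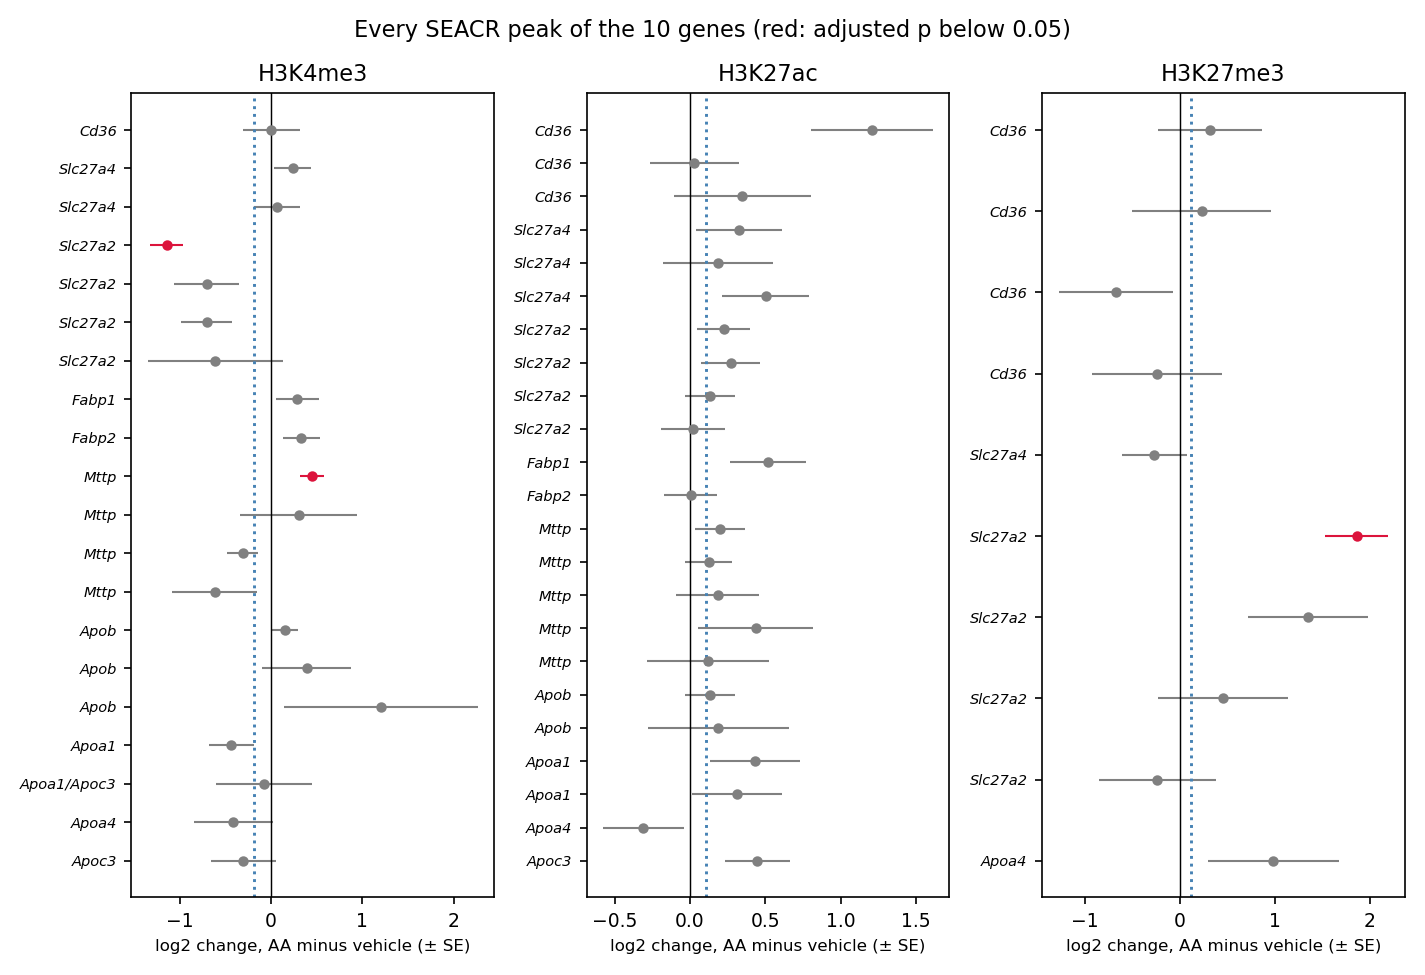
Change on the log2 scale (horizontal axis, AA minus vehicle, with SE bars) of every SEACR peak at the 10 genes, in 1 panel per mark. Called peaks are red and the dotted blue line is the median of all peaks of the mark: the Slc27a2 start peak stands at -1.14 for H3K4me3 and 1.86 for H3K27me3, and the Mttp start peak at 0.45 for H3K4me3.

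Over the 10 genes together, 1 of 20 H3K4me3 peaks was called higher and 1 lower, where 1.54% of all peaks were called higher and 1.38% lower. In 6 peaks both AA libraries lay above both vehicle libraries, and in 6 below them, against 18.3% and 30.5% of all peaks. The median change was -0.04 over the 20 peaks and -0.19 over all 58548. These sets differ in level, for the 20 peaks had a median percentile of 73.1 by mean score. Over all peaks the median change rose with level, from -0.75 in the weakest 10% to 0.28 in the strongest 10%. Each call is a single peak, and no direction of the 10 genes as a group is read from them. Of the strongest H3K4me3 peak of each protein-coding gene, 5.36% were called higher and 1.36% lower, and at the 10 genes it was 1 higher (Mttp), 1 lower (Slc27a2) and 8 not passing.

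For H3K27ac, limma called 0 of 23 peaks, with 3 at an unadjusted p under 0.05, and 0 of the 4 MACS2 peaks. Among all H3K27ac peaks 0.155% were called higher and 0.0448% lower, so the mark gave few calls anywhere. In 13 of the 23 peaks both AA libraries were above both vehicle libraries, and in 0 below them, against 28.5% and 10.7% of all peaks. The change was above 0 in 22 of 23 peaks, with a median of 0.20, against 63.2% of all peaks and a median of 0.11. That lean moved with the scaling: 19 of 23 were above 0 after centring on the median, 16 after quantile normalization and 15 after centring on the strongest 25% of peaks, a scaling added after the data were seen. The share of all peaks above 0 under those scalings was 54.4%, 51.9% and 45.1%. Of the strongest H3K27ac peak of each gene, 0.323% were called higher and 0.0359% lower.

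For H3K27me3, 1 of 10 peaks was called higher and 0 lower, where 0.498% of all peaks were called higher and 0.0475% lower. In 4 peaks both AA libraries were above both vehicle libraries and in 1 below them, against 26.3% and 13.4% of all peaks. Of the strongest H3K27me3 peak of each gene, 2.53% were called higher and 0.265% lower. At Apob, Mttp, Apoa1, Apoc3, Fabp1 and Fabp2 no peak of this mark lay in the window in either group.

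**Figure D4:**
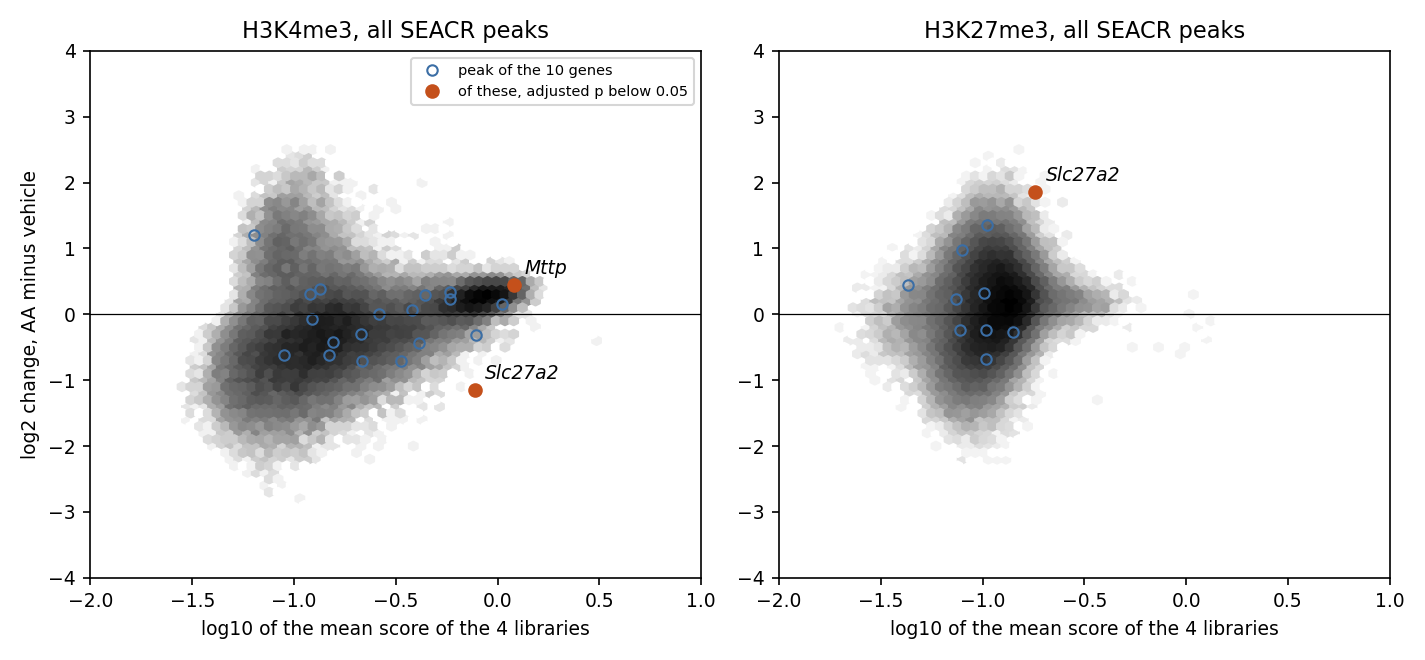
Change on the log2 scale (vertical axis, AA minus vehicle) against the mean score of the 4 libraries (horizontal axis, log10 scale) for H3K4me3 and H3K27me3, with all SEACR peaks as grey density (darker for more peaks; peaks outside the axes are not drawn), peaks at the 10 genes as open blue circles and called ones filled in orange. Both called H3K4me3 peaks and the called H3K27me3 peak lie among the stronger peaks of their mark.

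The other genes of chylomicron assembly and fat absorption were called at about the share of all genes. Of 32 such genes, 30 had an H3K4me3 peak, and of their strongest peaks 1 was called higher, 1 lower and 28 did not pass, against 5.36% higher and 1.36% lower over all genes. Their median change was 0.06, against 0.19 over all genes. Npc1l1, which encodes the cholesterol uptake protein of the brush border, was the lower one, at 0.481 and 0.391 in AA and 0.717 and 0.789 in vehicle (log2 change -0.76 ± 0.20, SE, limma adjusted p = 0.0144). Both AA libraries lay below both vehicle libraries. Agpat2, an acyltransferase of triglyceride synthesis, was the higher one, at 1.22 and 0.802 in AA and 0.665 and 0.684 in vehicle (log2 change 0.53 ± 0.16, SE, limma adjusted p = 0.0445), with AA replicate 1 well above AA replicate 2. The call at Npc1l1 was lost after median centring (limma adjusted p = 0.0611) and with MACS2 peaks (limma adjusted p = 0.123). The call at Agpat2 was lost without AA replicate 1, where the change was 0.24 (limma adjusted p = 0.18), and with MACS2 peaks (limma adjusted p = 0.116). Both calls were also lost in limma without trend and robust (adjusted p = 0.464 at Npc1l1 and 0.562 at Agpat2) and when either vehicle library was left out (limma adjusted p up to 0.884). The monoacylglycerol acyltransferase gene Mogat2, at 0.694 and 0.618 in AA and 0.405 and 0.432 in vehicle, did not pass (log2 change 0.62, limma adjusted p = 0.0842). In this list limma called 0 of 28 genes with an H3K27ac peak and 0 of 11 with an H3K27me3 peak, with 5 and 1 at an unadjusted p under 0.05. Over all genes 0.323% and 2.53% were called higher in these marks, and 0.0359% and 0.265% lower.

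Of 20 transcriptional regulators known to act on fat absorption genes, all had an H3K4me3 peak, 2 were called higher and 18 did not pass, against 5.36% higher and 1.36% lower over all genes. Their median change was 0.27, against 0.19 over all genes. Gata6, a GATA factor of the small intestinal epithelium, had 2.15 and 2.04 in AA and 1.56 and 1.51 in vehicle (log2 change 0.44, limma adjusted p = 0.00362). Ppard, a nuclear receptor for fatty acids, had 1.14 and 0.843 in AA and 0.674 and 0.567 in vehicle (log2 change 0.64, limma adjusted p = 0.0126). At both genes all AA values exceeded all vehicle values, and both calls were lost when either vehicle library was left out (limma adjusted p up to 0.884) and in limma without trend and robust (adjusted p = 0.545 at Gata6 and 0.511 at Ppard). As 1 length-weighted mean over its peaks, Ppard had a change of 0.25 and did not pass (limma adjusted p = 0.319). Hnf4a and Hnf4g, nuclear receptors that drive enterocyte lipid genes, did not pass, with changes of 0.23 and 0.25. H3K27me3 was called higher at 2 of the 12 factor genes with a peak, where 2.53% of all genes were called higher and 0.265% lower. Ppara, the fatty acid receptor that induces fatty acid oxidation, had 0.28 and 0.255 in AA and 0.0846 and 0.0579 in vehicle (log2 change 1.54 ± 0.33, SE, limma adjusted p = 0.00728). The strongest H3K4me3 peak of Ppara, which covers it, had a change of 0.01 and did not pass (limma adjusted p = 0.973). Prdm1, a repressor that in mice holds back the switch from suckling to adult intestinal epithelium, had 0.336 and 0.343 in AA and 0.193 and 0.202 in vehicle (log2 change 0.69 ± 0.13, SE, limma adjusted p = 0.0015). That peak (chr10:44523415-44529811) lies apart from the strongest H3K4me3 peak of Prdm1 (chr10:44445767-44450351), whose change of 0.31 did not pass (limma adjusted p = 0.41). Both H3K27me3 calls were lost after median centring, in limma without trend and robust and in each fit that left out 1 library. In all, the Ppara call was lost in 9 of 13 alternatives and the Prdm1 call in 10 of 14. For H3K27ac limma called 0 of the 20 factor genes, with 3 at an unadjusted p under 0.05, against 0.323% higher and 0.0359% lower over all genes.

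Of 10 relatives of the carriers, transporters and apolipoproteins that are not typical of the enterocyte, 7 had an H3K4me3 peak. Among these 1 was called higher and 6 did not pass, against 5.36% higher and 1.36% lower over all genes. Each was read at the strongest peak in its window. Whether that peak covers the start of the gene or of a neighbouring gene was not examined. The peak of Apoa2, a liver apolipoprotein gene (chr1:171220588-171223529), was called higher, at 1.44 and 1.28 in AA and 1.05 and 0.946 in vehicle. On the log2 scale the change was 0.43 ± 0.13 (SE, limma adjusted p = 0.0439), and the call was lost in 5 of 14 alternatives. It was lost after quantile normalization, where the change was 0.12 (limma adjusted p = 0.456), with MACS2 peaks (limma adjusted p = 0.131), in limma without trend and robust (adjusted p = 0.557) and when either vehicle library was left out (limma adjusted p up to 0.884). Fabp5, the epidermal-type carrier, had 0.59 and 0.599 in AA and 0.422 and 0.48 in vehicle and did not pass (log2 change 0.38, limma adjusted p = 0.365). Limma called 0 of 5 genes for H3K27ac and 0 of 6 for H3K27me3, with 0 and 2 at an unadjusted p under 0.05. Over all genes 0.323% and 2.53% were called higher in these marks, and 0.0359% and 0.265% lower. Across the SLC27 family H3K4me3 changes on the log2 scale were -1.77 at Slc27a5, -1.14 at Slc27a2, -0.18 at Slc27a1, -0.18 at Slc27a3, -0.17 at Slc27a6 and 0.24 at Slc27a4. Slc27a5, the liver bile acid CoA ligase, had 0.0424 and 0 in AA and 0.157 and 0.085 in vehicle, so its larger change rests on a weak peak and did not pass (SE 1.05, limma adjusted p = 0.398). Read at the strongest peak of each gene, Slc27a2 was the only gene of the family that was called. Weaker peaks of Slc27a1, Slc27a3, Slc27a5 and Slc27a6 were not read.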

How the data were processed

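CUT&RUN libraries for H3K4me3, H3K27ac and H3K27me3 were compared between AA and vehicle, 2 libraries per group and mark. The deposited signal is a peak score per library, which the authors gave for SEACR and MACS2 peaks on mm10, per the submitters' processing notes. Their versions, the aligner and how libraries were scaled were not given in those notes or the labels. Within each library, multiplying score by length gave whole multiples of a fixed step (within 0.1 step, for at least 99.99% of values below 1000 steps), so score divided by step was read as raw coverage. Rows named control were taken as vehicle.

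The members, the gene lists and the tests were chosen with earlier results of these data known. SEACR peaks were the main set. Each mark was fitted on all its peaks in R 4.3.3 by limma 3.58.1, with its trend and robust options, after taking log2(score + pseudocount), with the deposited scaling and Benjamini-Hochberg adjustment over all peaks of the mark. The pseudocount was the 5th percentile of positive values, 0.0253 for H3K4me3, 0.0693 for H3K27ac and 0.0329 for H3K27me3, so changes of weak peaks are understated. The procedure was also run on simulated data with independent noise whose spread was set by level. Those data held no differences between libraries in scaling or depth, so that run cannot show how the calls respond to either. Gene spans came from RefSeq for GRCm38.p6, extended by 1 kb, and the strand and start from its promoter table. Named peaks are, per gene and mark, the strongest, the strongest at the start and every called one, plus up to 4 called genes of each list; others in the text were added after their values were seen. Alternatives were MACS2 peaks, other scalings, pseudocounts, filters, thresholds, windows, limma without trend and robust, a replicate block and leaving out each library. Same-numbered libraries did not deviate together (correlations of -0.0023, 0.0085 and 0.0025 for H3K4me3, H3K27ac and H3K27me3), so the numbers were not taken as pairs.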

Additional observations from a re-analysis of the deposited data

How the results depend on the processing

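The 2 H3K4me3 calls at the 10 genes became 1 with MACS2 peaks, 1 at a threshold of 0.01, 0 in limma without trend and robust, and 5 after centring on the strongest 25% of peaks, a scaling added after the data were seen. They ranged from 0 to 6 when 1 library was left out, with 0 without either vehicle library. The H3K27me3 call became 0 in limma without trend and robust and ranged from 0 to 1 when 1 library was left out. H3K27ac gave 0 calls under every alternative run. MACS2 gave no H3K27me3 value, for it had no peak there. With a replicate block the calls stayed at 2 for H3K4me3, 0 for H3K27ac and 1 for H3K27me3, and over all peaks they numbered 2522 against 1710, 280 against 125 and 857 against 574.

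Over all peaks, H3K4me3 calls numbered 1710, 6106 after median centring, 5446 after centring on the strongest 25%, 540 at a threshold of 0.01 and 32 to 8903 without 1 library. H3K27ac calls numbered 125, 54 at that threshold and 0 to 120 without 1 library. H3K27me3 calls numbered 574, 79 after median centring, 179 after centring on the strongest 25%, 164 after quantile normalization, 224 with 4 times the pseudocount, 253 at that threshold and 44 to 90 without 1 library. With MACS2 peaks H3K27ac had 0 and H3K27me3 had 10, H3K27ac had 0 with only the stronger peaks kept, and limma without trend and robust called 0 in all 3 marks. Median centring moved all changes by 0.21 (H3K4me3, upward), and by 0.07 and 0.11 (H3K27ac and H3K27me3, downward).

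Signs turned only at peaks that had not passed, save the Mttp start peak, at -0.058 as a gene mean. In H3K4me3, Apob was -0.14 after quantile normalization, Apoa4 0.12 with 1 of its 2 MACS2 peaks (-0.86 with the other, which did not pass), and Cd36 -0.15 after strongest-25% centring. Without 1 library, Apoc3 ranged from -0.73 to 0.12 and Cd36 from -0.34 to 0.35. In H3K27ac, after strongest-25% centring and quantile normalization, Apob was -0.0087 and -0.0084, Mttp within the gene -0.019 and -0.030, Fabp2 -0.14 and -0.13, Cd36 -0.11 and -0.024, and the strongest Slc27a2 peak -0.0097 and -0.0021. After median centring Fabp2 was -0.068 and Cd36 -0.042. Without 1 library, Fabp2 ranged from -0.033 to 0.041, Cd36 from -0.17 to 0.23 and that Slc27a2 peak from -0.040 to 0.31. The H3K27me3 peak before the Cd36 start ranged from -0.53 to 0.98. The cause of these shifts was not tested. The median raw coverage of 1.19 to 3.38 fragments per base and the 2 libraries per group both limit the precision at weak peaks, and their parts were not told apart.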

Other observations

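Called peaks also lay outside the windows of 3 of the genes, within 50 kb, and were picked after their values were seen. They came from a look at every peak in the flanks of all 10 genes. Over all H3K4me3 peaks 1.54% were called higher and 1.38% lower, and over all H3K27ac peaks 0.155% and 0.0448%. An H3K4me3 peak 2468 to 3492 bases before the Slc27a2 start (chr2:126549532-126550556) had 0.16 and 0.0793 in AA and 0.309 and 0.312 in vehicle, a change of -1.27 ± 0.37 (SE, limma adjusted p = 0.0316). It lay in the same direction as the peak over the start, and its call was lost in 3 of 12 alternatives. An H3K27ac peak that ends 13665 bases before the Fabp1 start (chr6:71183222-71186214) had 0.423 and 0.279 in AA and 0.143 and 0.134 in vehicle, a change of 0.99 ± 0.24 (limma adjusted p = 0.0205). It kept its call in 4 of 13 alternatives. A short H3K4me3 peak 20436 bases outside Apob (chr12:7956822-7957193) had 0.116 and 0.484 in AA and 0.022 and 0.00656 in vehicle, a change of 2.79 ± 0.80 (limma adjusted p = 0.0266). AA replicate 2 was far above the other libraries there, and without it the change was 1.86 (limma adjusted p = 0.372).

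Peaks where H3K4me3 was called lower and an overlapping H3K27me3 peak was called higher, as at the Slc27a2 start, were counted over the genome. They made up 33 of 806 H3K4me3 peaks called lower (4.09%). Of the 904 H3K4me3 peaks called higher 5 overlapped such an H3K27me3 peak (0.553%), and of the 56838 not called 373 did (0.656%). Overlap with an H3K27me3 peak called lower was also more frequent there. It was found at 11 of the H3K4me3 peaks called lower (1.36%) and 6 of those called higher (0.664%). Among those not called it was found at 31 (0.0545%). Both marks were compared in their own libraries, and the differences between these shares were not tested. By the size of the H3K27me3 change, 1.86 at Slc27a2 came after 2.54 at Esrrg, an orphan nuclear receptor gene, and 2.11 at Coq8a, a coenzyme Q biosynthesis gene.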
